A study of Mus musculus with 2 samples.

Results

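The genes described here are the replication-linked histone genes of the mouse, taken as every gene whose symbol begins with Hist1h, Hist2h, Hist3h or Hist4h. This rule picked 69 of the 27998 genes counted, with 68 distinct symbols, since Hist2h2bb stands for 2 gene identifiers. By symbol they comprise 6 linker histone H1 genes, 19 H2A, 19 H2B, 12 H3 and 13 H4 genes, and 55 of them carry Hist1 names. These counts include Hist1h2al, annotated as a processed pseudogene, and 1 Hist2h2bb identifier annotated as a long non-coding RNA. Their RNA was read in single thymus cells of C57BL/6 mice that carry a yellow fluorescent reporter in both copies of Bcl11b (genotype Bcl11b yfp/yfp), which all populations share. Each of 5 sorted populations was stained with its own hashtag antibody and all were pooled into 1 droplet library that counts the 3′ ends of polyadenylated RNA. All populations were sorted as lineage-negative, 7AAD-negative, Kit+ cells, and this gate alone defines the control. The 4 gated sorts were in addition CD25- and Bcl11b-, and were split by Flt3, Ly6d and HSA (the product of Cd24a). They were Flt3+ Ly6d- HSA-, Flt3+ HSA+ (not gated on Ly6d), Flt3- Ly6d- HSA-, and Flt3- Ly6d+ (not gated on HSA). How many mice were used, and of what age, is not stated in the labels. With 1 sort per population in 1 library, no difference between populations has a replicate check and no test was run. All intervals cover counting error only, at 95%.

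Histones are the proteins that DNA wraps around: H2A, H2B, H3 and H4 form the core of the nucleosome and H1 binds the linker DNA between cores. Most of their genes sit in clusters and are transcribed when DNA is copied in S phase. Their RNA typically ends in a short stem-loop, bound by SLBP, in place of a poly-A tail, and is degraded when replication stops. Some of these genes can also give polyadenylated RNA, which can persist outside S phase. A library primed on poly-A therefore sees only part of the RNA of this family, and the captured share can differ from gene to gene. Shares of the family below are shares of the captured UMIs, not of the histone RNA in the cells.

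The stem-loop was searched in the annotated transcripts as the letters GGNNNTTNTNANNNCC with 6 bases on each side that pair, in the sense strand. It was found in 44 of the 67 members that matched a GENCODE M21 transcript (build GRCm38), and in 79 of all 55450 genes (0.142%). The same 16 bases, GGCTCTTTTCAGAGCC, occurred in 24 of the members. The lines that follow give it in members whose cell-cycle behaviour is described further on, with up to 5 bases on each side and the stem-loop in capitals, since it is the feature that sets this family apart.
Hist1h2ap: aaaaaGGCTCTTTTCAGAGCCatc
Hist1h3c: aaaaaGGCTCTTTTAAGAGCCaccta
Hist2h2ac: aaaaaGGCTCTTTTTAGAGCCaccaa
Hist1h1e: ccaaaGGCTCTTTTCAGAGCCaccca
Hist1h4d: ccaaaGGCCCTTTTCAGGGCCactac
Hist3h2a: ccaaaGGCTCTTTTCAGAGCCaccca
Hist4h4: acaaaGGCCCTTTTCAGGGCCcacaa
The 16 bases were identical in Hist1h2ap, Hist1h1e and Hist3h2a. What differed was how far the annotated transcript runs on after them: 3 bases in Hist1h2ap, 74 in Hist1h3c, 57 in Hist2h2ac, 770 in Hist1h4d, 1153 in Hist1h1e, 1643 in Hist3h2a and 2445 in Hist4h4. The stem-loop of Hist1h2ap lies at chr13:21833029-21833044 (minus strand) and that of Hist3h2a at chr11:58955172-58955187 (plus strand). These letters were not found in the annotated transcripts of Hist1h2bc, Hist1h1b, Hist1h1a or Hist2h2be. Those of Hist1h1b and Hist1h1a are 743 and 741 bases long and may stop before a stem-loop, so its absence from their RNA is not shown.

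The library gave 10616041 to 57199129 UMIs (unique molecular identifiers, that is counted RNA molecules) per population, from 847 to 3302 cells. Median depth ran from 9860 UMIs per cell in Flt3- Ly6d- HSA- to 21152 in Flt3+ HSA+. Levels are given as CPM, the UMIs of a gene summed over the cells of a population per 1000000 UMIs of that population. Gate genes were in the order of the gates for Flt3, at 87.7, 64.1, 23.8, 14.2 and 18.0 CPM in Flt3+ Ly6d- HSA-, Flt3+ HSA+, Flt3- Ly6d- HSA-, Flt3- Ly6d+ and the control. Ly6d was at 431 in Flt3- Ly6d+, 415 in the control and 11.3 to 17.5 in the other sorts. Bcl11b was at 193 in the control and 0.284 to 3.49 in the gated sorts. Cells of a granulocyte class, with a UMI of at least 7 of 14 granulocyte and monocyte markers, made up 4.82%, 2.28%, 8.38%, 0% and 1.36% of the populations in the same order. The markers were read at full depth, so deeper cells enter the class more easily. Where the class was present, it held 10.5%, 5.27%, 20.3% and 3.14% of the UMIs. Values without the class therefore also leave out deep cells. Summed over the 14 markers the levels were 3247.5, 3257, 4571, 506 and 1124.5 CPM, with 12, 12, 12, 6 and 10 markers at 5 or more, and S100a9 at 0 in Flt3- Ly6d- HSA-. Later thymocyte markers summed to 2.19 to 3.07 in the gated sorts and to 237 in the control.

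The members together took 1431 CPM in Flt3+ Ly6d- HSA-, 2171 in Flt3+ HSA+, 891 in Flt3- Ly6d- HSA-, 959 in Flt3- Ly6d+ and 1781 in the control. Flt3+ HSA+ was highest and Flt3- Ly6d- HSA- lowest. Of the 69 members, 37 reached 5 CPM in at least 1 population, 27 had UMIs but stayed under it, and 5 had none in assigned cells (Hist2h2aa2, Hist1h2br, Hist1h2ba, Hist1h2aa and Hist1h2al). The captured UMIs were unevenly spread: 4 members (Hist1h1b, Hist1h2ap, Hist1h1e and Hist1h2ae) held 60.0% of the 215360 member UMIs and 12 members held 84.2%. H1 genes took 40.1% to 46.1% of the members' UMIs in each population and H3 genes 3.53% to 4.71%. The share of H2B genes varied most, from 6.49% in Flt3+ HSA+ to 19.1% in Flt3- Ly6d- HSA-. Of the H2B sum, Hist1h2bc alone took 36.7 of 141 CPM in the former and 119.6 of 170 in the latter.

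**Figure D1:**
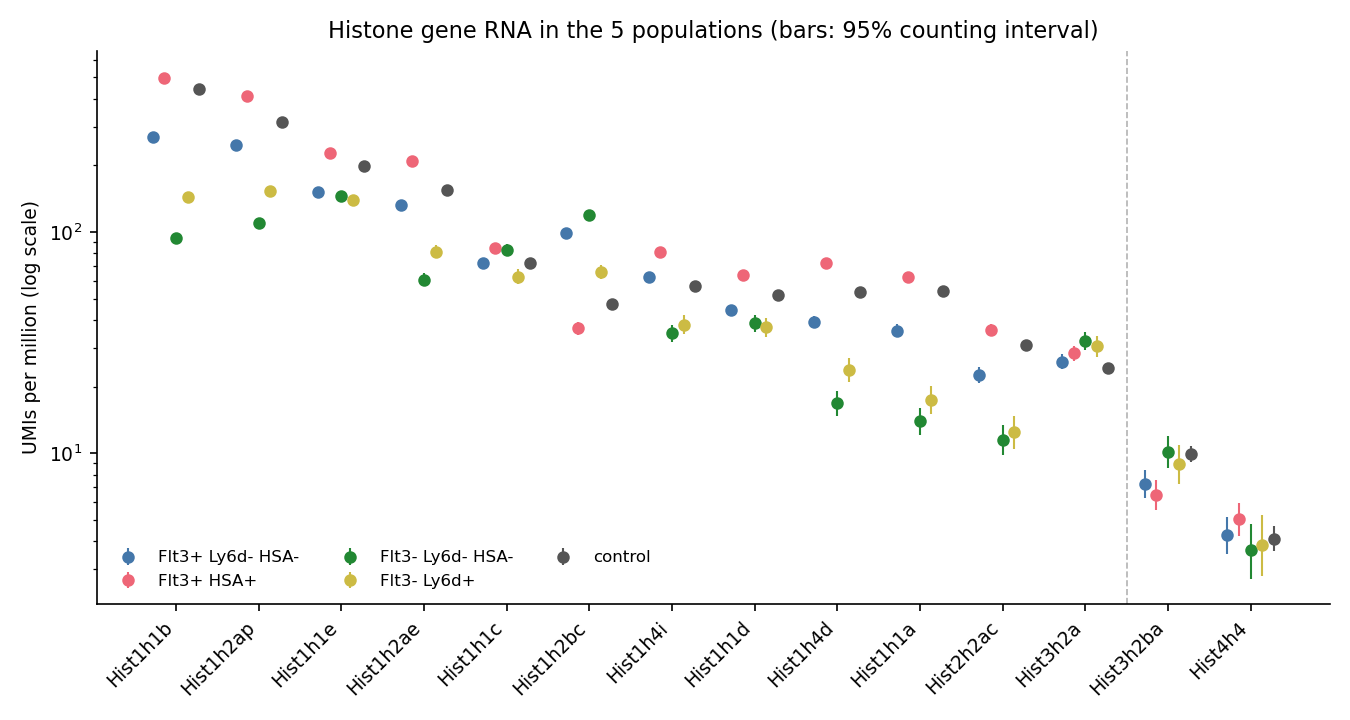
Level of the 12 members with most UMIs and, right of the dashed line, of Hist3h2ba and Hist4h4 in the 5 populations, in CPM on a log axis. Points are sums over all cells of a population and bars are exact Poisson 95% intervals. Flt3+ HSA+ (red) lies highest for most genes, while for Hist1h2bc it lies lowest and Flt3- Ly6d- HSA- (green) highest.

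To separate members that follow S phase from those that do not, each cell was thinned to 3000 UMIs and its UMIs of 50 S phase genes and 44 G2 and M phase genes, none of them a histone gene, were counted. The upper and lower tertiles of these counts over 3250 control cells set the ranges. The low range holds cells at or under 6 S phase and 1 G2 and M phase UMIs, and the S range holds cells with 17 or more S phase and under 5 G2 and M phase UMIs. These are ranges of a score and not cell types. Of the 3250 cells, 432, 218, 1886 and 274 lay within 1 UMI of the lower S, upper S, lower G2 and M and upper G2 and M limits. A member with at least 20 UMIs over both ranges was counted as following the S range when its level was at least 2 times that of the low range and the interval lay over 1. It was counted as not following when the ratio was under 1.5 and the interval under 2.

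In control cells 6 members followed the S range: Hist1h1b, Hist1h3c, Hist1h2bj, Hist1h3a, Hist1h2ag and Hist1h2bk, with 25.6% of the members' UMIs. Their ratios over the low range were 2.26 (1.97 to 2.59) for Hist1h1b, 6.35 (2.67 to 18.3) for Hist1h3c, 2.44 for Hist1h2bj, 2.33 for Hist1h3a, 9.76 for Hist1h2ag and 3.91 for Hist1h2bk. Made in the 4 gated sorts pooled, the same rule found 9 members, 4 of these 6 among them, and without the granulocyte class 4 of the 6 were found in the control, so the 6 are 1 choice of set. Hist1h1b alone held 22.1% of the members' UMIs, so a sum over the 6 is mostly that of 1 gene. Another 19 members did not follow the S range in control cells, 9 were undetermined and 35 had too few UMIs. Among the 19 members with 5 CPM in either range, 2 were at least 2-fold higher in the S range, against 5.33% of 9351 genes, and 4 at least 2-fold lower, against 4.54%. Their median log2 ratio was -0.39, against -0.09 over all genes measured.

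The members were highest in cells with many UMIs of both lists. After these values were seen, cells with 5 or more G2 and M phase UMIs were therefore split into an S and G2M range, with 17 or more S phase UMIs, and a G2M only range with fewer. In the control, all members together stood at 565 CPM in 857 low range cells, 466 in 473 S range cells, 3620 in 664 S and G2M range cells and 2380 in 429 G2M only cells. Median depth was 9840, 18273, 24221 and 25585 UMIs per cell in these ranges. At an equal depth of 3000 UMIs, 74.8% (71.7 to 77.7), 62.2% (57.6 to 66.5), 94.1% (92.1 to 95.8) and 93.7% (91.0 to 95.8) of cells had a member UMI. At full depth the shares were 97.0%, 97.0% and 99.8%, and all G2M only cells had one.

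Over the low range, 43 members with 87.1% of the family's UMIs were at least 2-fold higher in the S and G2M range of control cells by the same rule, the 6 above among them. Only Hist1h2bc, Hist3h2a, Hist3h2ba and Hist4h4 did not follow it, 7 members were undetermined and 15 had too few UMIs. Among the 38 members at 5 CPM in either range, 30 were at least 2-fold higher, against 7.64% of 9399 genes, and 3 at least 2-fold lower, against 8.12%. The median log2 ratio of these members was 2.88, against -0.11 over all genes measured. The 43 were chosen in control cells, and their values there are a description of that choice.

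The 4 gated sorts did not enter that choice of members, but the range itself was set after values of these data were seen. The minimum of 20 UMIs used here is a sum over both ranges. It lets in a member nearly absent from the low range only through the S and G2M range, so the counts favour such members. Of the 43 members, 33 had 20 UMIs over both ranges in Flt3+ Ly6d- HSA-, and 30 of these were at least 2-fold higher in the S and G2M range. The counts were 39 of 40 in Flt3+ HSA+, 13 of 19 in Flt3- Ly6d- HSA- and 15 of 17 in Flt3- Ly6d+. Median ratios of these members were 7.09, 7.50, 4.81 and 7.91. In Flt3- Ly6d- HSA- 4 of the 19 had a ratio under 1: Hist1h2bf at 0.280, Hist1h1d at 0.878, Hist1h4h at 0.955 and Hist1h2ac at 0.966, each with an interval that spans 1. The members under 2-fold in at least 1 sort were Hist1h1d, Hist1h1e, Hist1h2ac, Hist1h2bf, Hist1h3e and Hist1h4h. Over all members at 5 CPM in either range, 27 of 36, 32 of 38, 22 of 32 and 26 of 34 were at least 2-fold higher, against 9.87%, 9.37%, 13.8% and 9.27% of all genes. At least 2-fold lower were 3, 1, 3 and 2 members, against 10.4%, 9.36%, 19.4% and 11.8%. The S and G2M range of Flt3- Ly6d- HSA- held 29 cells, 17 of them of granulocyte class, and that of Flt3- Ly6d+ held 42 cells, none of that class. Without the class, 20 of 30 members were at least 2-fold higher in Flt3- Ly6d- HSA-, from 12 cells.

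**Figure D2:**
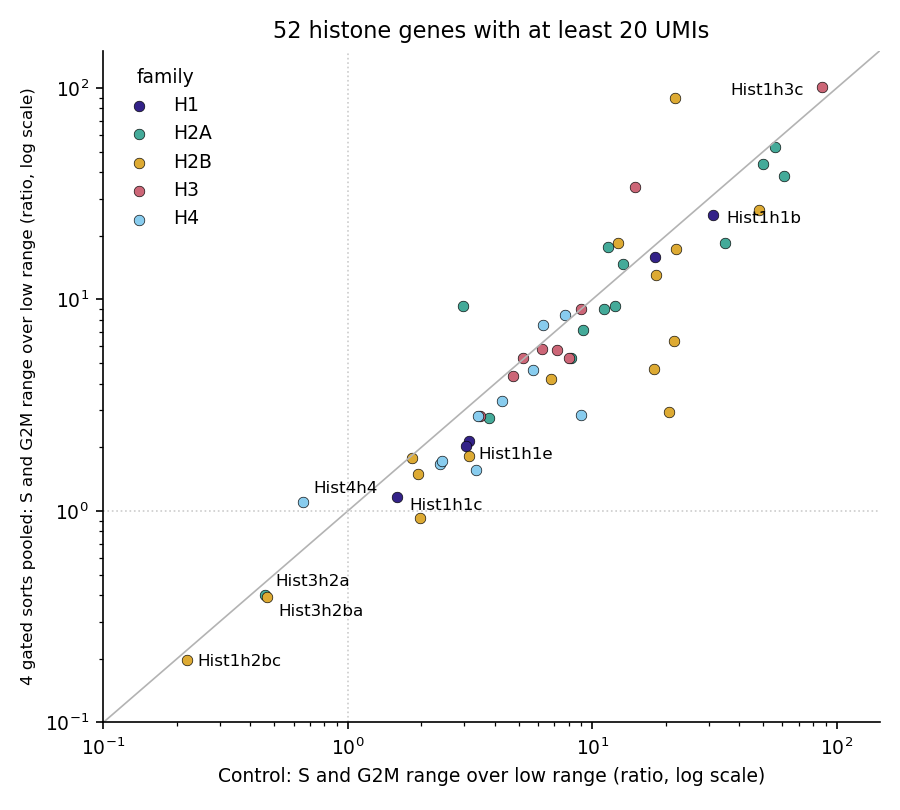
Ratio of the S and G2M range over the low range in control cells (x axis) and in the 4 gated sorts pooled (y axis), both on log axes, for the 52 members with at least 20 UMIs in each. Colours mark the histone family and the diagonal marks equal ratios. Hist1h2bc lies lowest at 0.220 and 0.197, with Hist3h2a and Hist3h2ba next, and Hist1h3c lies highest in the control at 87.0.

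Among the linker histones, Hist1h1b (histone H1.5) had the most UMIs of the family. It stood at 269 CPM in Flt3+ Ly6d- HSA-, 499.7 in Flt3+ HSA+, 93.7 in Flt3- Ly6d- HSA-, 144 in Flt3- Ly6d+ and 443 in the control. Within the control it went from 34.8 in the low range over 78.5 in the S range to 1089 in the S and G2M range, a ratio of 31.3 (27.9 to 35.2) between the last and the first, and was at 528 in G2M only cells. The ratio was 29.2, 60.8, 20.3 and 20.1 in the 4 gated sorts. Hist1h1a (H1.1) had the same order of populations, at 35.9, 62.5, 13.98, 17.4 and 54.1, and a control ratio of 18.1 (14.2 to 23.4).

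The other H1 genes differed less between ranges. Hist1h1e (H1.4) stood at 152, 228, 146, 139.9 and 199.9 CPM in the 5 populations. It was at 122 in low range control cells, 66.6 in the S range and 371 in the S and G2M range, 3.05 times the low range (2.85 to 3.25). Hist1h1d (H1.3) stood at 44.3, 64.2, 38.6, 37.2 and 52.0, with a control ratio of 3.13 (2.75 to 3.59). Hist1h1c (H1.2), known to give polyadenylated RNA in cells that do not divide, varied least among these 5 genes between populations, at 72.6, 85.0, 83.2, 62.8 and 72.2. In control cells it was at 63.2 in the low range, 27.5 in the S range and 101 in the S and G2M range, a ratio of 1.59 (1.45 to 1.76), and was grouped as undetermined. Its ratio was 1.05 in Flt3+ Ly6d- HSA-, 1.78 in Flt3+ HSA+, 0.555 in Flt3- Ly6d- HSA- and 1.19 in Flt3- Ly6d+. Every 90-base window in the last 300 bases of the annotated Hist1h1e transcript is also in Hist1h2be, whose gene model overlaps it on the minus strand, so the count of Hist1h1e is uncertain.

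Of the H2A genes, Hist1h2ap and Hist1h2ae had the most captured UMIs. Hist1h2ap stood at 248, 414, 109.5, 154 and 314 CPM in the 5 populations, and at 60.2, 73.3, 674 and 436 in the low, S, S and G2M, and G2M only ranges of the control. Its S and G2M ratio was 11.2 (10.3 to 12.2). Hist1h2ae stood at 133, 209, 61.0, 81.6 and 155, with a ratio of 9.18 (8.20 to 10.3). Hist2h2ac stood at 22.7, 36.1, 11.48, 12.4 and 31.0, with a ratio of 12.4 (9.31 to 16.9). The 3 genes were highest in Flt3+ HSA+ and lowest in Flt3- Ly6d- HSA-. Every 90-base window in the last 300 bases of the annotated Hist1h2ap transcript also occurs in other genes, most of them H2A genes, so its counts are uncertain. This held for 9 members in all, among them Hist1h3e and Hist2h2aa2, which had no UMIs, and 23 members shared no such window.

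Hist3h2a, an H2A gene outside the large clusters, went the other way. It was at 25.9, 28.3, 32.3, 30.4 and 24.2 CPM in the 5 populations, a narrow span with Flt3- Ly6d- HSA- on top. In control cells it was at 39.5 in the low range, 7.06 in the S range and 18.1 in the S and G2M range, 0.459 times the low range (0.392 to 0.538). In the gated sorts this ratio was 0.278, 0.536, 0.183 and 0.578. In Flt3- Ly6d- HSA- it was at 8.78 in granulocyte class cells and at 38.3 in the other cells. Hist1h2ac stood at 5.56, 7.81, 4.64, 4.62 and 5.997, and followed the S and G2M range at 3.78.

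Hist1h2bc is the H2B gene with most UMIs and ran against the family. It stood at 99.2 CPM in Flt3+ Ly6d- HSA- (95.3 to 103), 36.7 in Flt3+ HSA+ (34.3 to 39.1), 119.6 in Flt3- Ly6d- HSA- (114 to 126), 66.1 in Flt3- Ly6d+ (61.3 to 71.2) and 47.1 in the control (45.3 to 48.9). It was thus highest where the family was lowest and lowest where the family was highest. In control cells it was at 42.3 in the low range, 24.8 in the S range, 9.32 in the S and G2M range and 83.5 in G2M only cells. The S and G2M ratio was 0.220 (0.181 to 0.267), and the G2M only ratio was 1.98 (1.75 to 2.23). In the gated sorts the S and G2M ratio was 0.143, 0.208, 0.340 and 0.267, with intervals under 1 in all 4. In Flt3- Ly6d- HSA- the S and G2M range level of 23.7 was 4.52 without the granulocyte class, which held 17 of the 29 cells.

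At an equal depth of 3000 UMIs, 7.82% of low range, 4.86% of S range, 2.71% of S and G2M range and 19.8% of G2M only control cells had a Hist1h2bc UMI. At full depth, with the median depths given above, the shares were 16.6%, 14.8%, 18.4% and 51.3%. No cell type that should lack this gene was at hand, so the 2.71% serves as the lowest level seen. A finer grid, set after these values were seen, placed the peak. In 34 control cells with 0 to 6 S phase and 5 to 14 G2 and M phase UMIs, Hist1h2bc was at 605 (536 to 681) and 94.1% of cells had a UMI at a median of 13057 UMIs. In 276 control cells with 17 or more S phase and 15 or more G2 and M phase UMIs it was at 10.5 (8.31 to 13.2). Ube2c and Ccnb1, which act in mitosis, were at 103 and 78.7 in the 34 cells. In 74 cells with 0 to 6 S phase and 15 or more G2 and M phase UMIs they were at 1552 and 468, and there Hist1h2bc was at 70.0. Cells of granulocyte class were 2 of the 34, and without them Hist1h2bc was at 658.

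The same place on the grid was the highest for Hist1h2bc in the gated sorts pooled, at 669.6 (624 to 718) in 83 cells, where Hist1h1b was at 47.7. In Flt3+ Ly6d- HSA- it was at 759 in 34 cells, and in Flt3- Ly6d- HSA- at 572 in 31 cells, 6 of them of granulocyte class, and at 768 without these. In cells with 0 to 6 S phase and 2 to 4 G2 and M phase UMIs it was at 359, 265, 240.5, 205 and 145 in the 5 populations. Flt3+ HSA+ and Flt3- Ly6d+ had fewer than 20 cells in the peak bin, and no value is given for them.

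**Figure D3:**
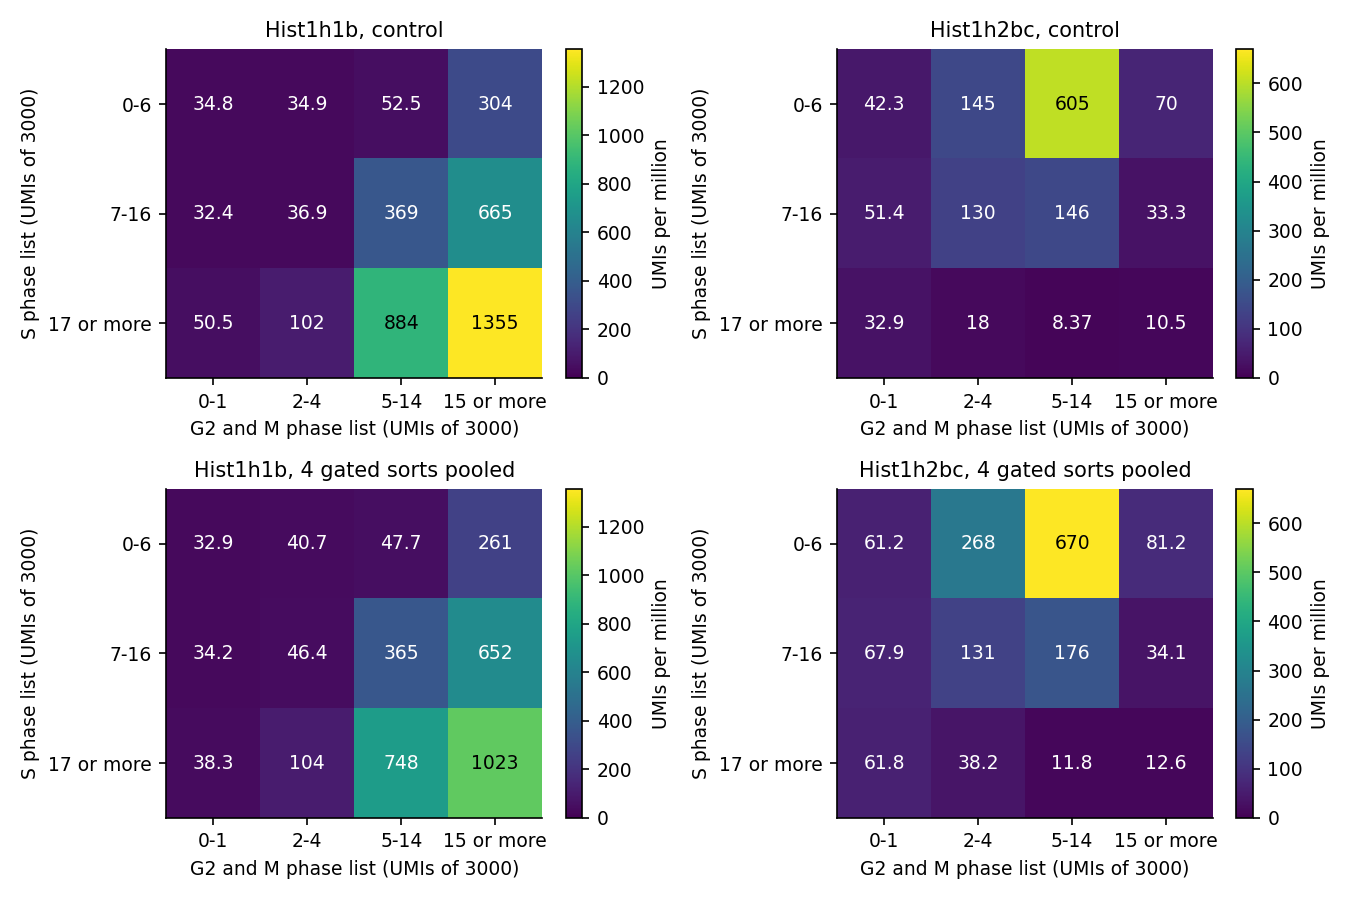
Level of Hist1h1b (left) and Hist1h2bc (right) in CPM, by the S phase list (rows) and the G2 and M phase list (columns) of the cells, in the control (top) and the 4 gated sorts pooled (bottom). Hist1h1b peaks where both lists are high, at 1355 in the control, and Hist1h2bc where the S phase list is low and the G2 and M phase list is at 5 to 14, at 605.

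Other H2B genes had fewer UMIs. Hist1h2be stood at 14.7, 21.7, 13.7, 14.7 and 16.5 CPM in the 5 populations, with a control S and G2M ratio of 1.83. Hist3h2ba, the second H2B gene that did not follow, stood at 7.27, 6.48, 10.1, 8.95 and 9.90 with a ratio of 0.469 (0.371 to 0.594), and stood at 0.414, 0.552, 0.354 and 0.0931 in the gated sorts, with an interval that spans 1 in Flt3+ HSA+ (0.280 to 1.18). Hist1h2bg (6.78, 5.66, 4.71, 4.43 and 4.63) and Hist2h2be (3.09, 3.90, 3.50, 2.92 and 3.01) were undetermined at 1.95 and 1.97. Hist1h2bf stood at 3.74, 5.70, 3.50, 3.67 and 4.34, with a ratio of 3.13. Hist1h2bj, which follows both ranges, stood at 10.8, 19.5, 4.28, 6.78 and 14.9, with a ratio of 18.3. Of the 19 H2B genes, 10 followed the S and G2M range, 2 did not, 3 were undetermined and 4 had too few UMIs. The counts for the 19 H2A genes were 12, 1, 1 and 5.

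The H3 genes had no member that failed to follow the S and G2M range: 10 of the 12 followed it and 2 had too few UMIs. Hist1h3c stood at 20.0, 36.8, 5.42, 10.3 and 27.8 CPM in the 5 populations. It was nearly absent from low range control cells, at 0.689, and at 4.37, 59.9 and 48.0 in the S, S and G2M, and G2M only ranges, a ratio of 87.0 (39.8 to 238) for the S and G2M range. Hist1h3e stood at 17.2, 23.0, 10.6, 13.5 and 18.5, with a lower ratio of 3.48. Of the 13 H4 genes, 7 followed, 1 did not, 2 were undetermined and 3 had too few UMIs. Hist1h4i stood at 62.7, 81.4, 34.8, 38.1 and 56.8 with a ratio of 5.74 (4.86 to 6.82), and Hist1h4d at 39.3, 72.4, 16.8, 23.7 and 53.5 with a ratio of 6.27 (5.28 to 7.49). Hist1h4h stood at 8.24, 9.91, 7.20, 6.41 and 8.48 with a ratio of 2.39. Hist4h4, on its own on chromosome 6, stood at 4.26, 5.04, 3.64, 3.86 and 4.11, with a control ratio of 0.658 (0.457 to 0.953). In the gated sorts its ratio was 1.68, 1.08, 0.50 and 0.548, with every interval spanning 1.

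**Figure D4:**
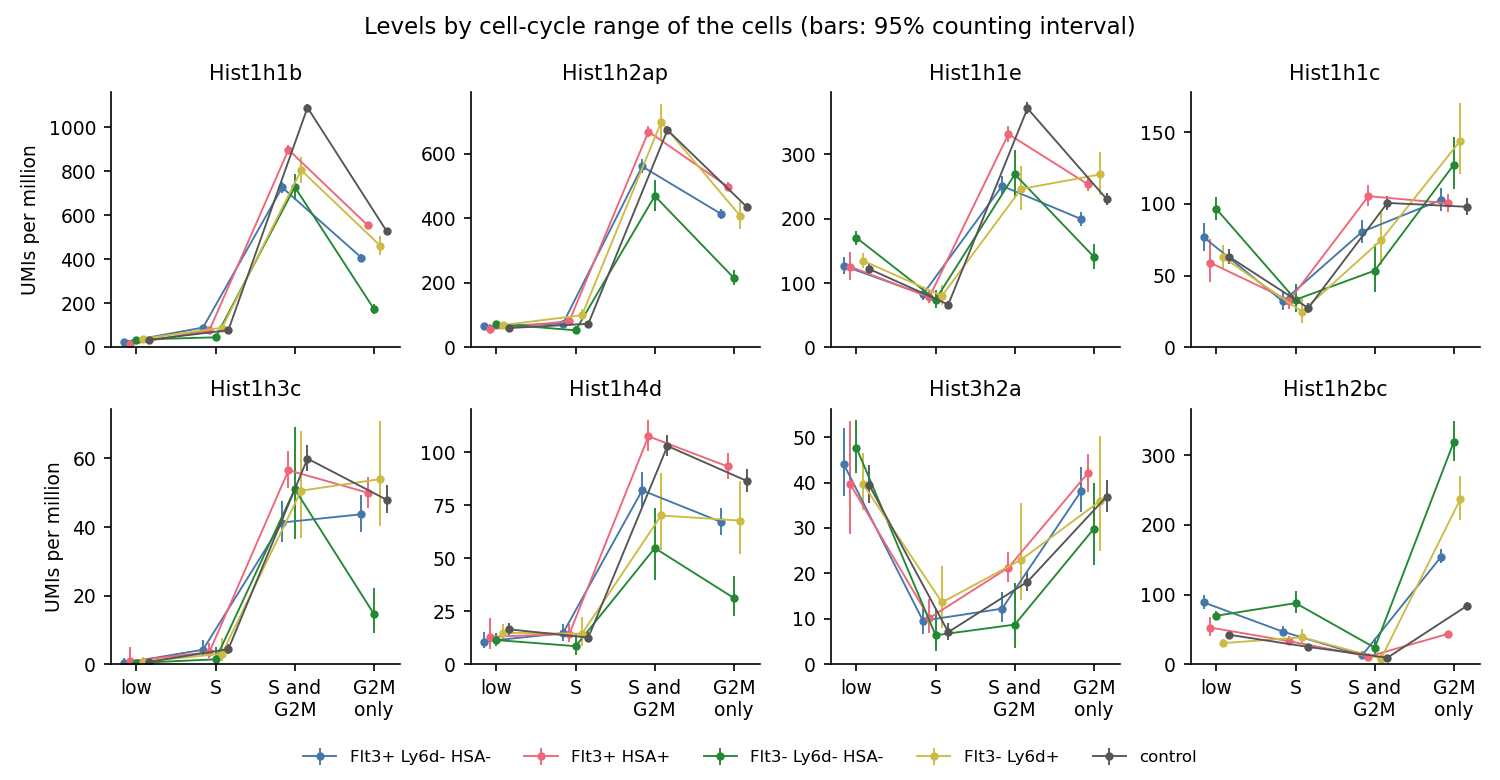
Levels of 8 members in CPM by cell-cycle range of the cells (x axis) in each population (colours), with exact Poisson 95% intervals as bars. Hist1h1b, Hist1h2ap, Hist1h3c and Hist1h4d are highest in or next to the S and G2M range, Hist1h1c and Hist3h2a dip in the S range, and Hist1h2bc is lowest in the S and G2M range in every population.

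The first comparison asked how the sorts without Ly6d and HSA differ with Flt3. In Flt3- Ly6d- HSA- the 43 members stood at 616 CPM against 1192 in Flt3+ Ly6d- HSA-, a ratio of 0.517 (0.505 to 0.529). The 6 S range members were at 113 against 318, a ratio of 0.357 (0.338 to 0.376). Hist1h1b alone made up 93.7 and 269 CPM of these 2 sums, and it leads this sum in the other comparisons too. Of 24 members at 5 CPM in either sort, none was at least 1.5-fold higher and 13 were at least 1.5-fold lower, from Hist1h3c at 0.271 to Hist1h3e at 0.613. The counts were 1 higher and 12 lower of 23 without the granulocyte class, where 626 and 574 of 9241 genes were higher and lower. They were 2 and 11 with every cell thinned to 3000 UMIs. Over 9210 genes, 4.56% were higher and 4.59% lower by this measure, and the median log2 ratio was 0.03 against -0.78 over the members. Hist1h2bc was at 1.21 (1.13 to 1.28), Hist3h2ba at 1.39, Hist3h2a at 1.25, Hist1h1c at 1.15 and Hist1h1e at 0.959. The S and G2M range held 2.41% of the cells against 13.8%, and the low range 52.0% against 21.2%. Within ranges the 43 members ran both ways. Their ratio was 1.20 (1.12 to 1.28) in the low range, 0.698 (0.628 to 0.776) in the S range and 0.541 (0.513 to 0.571) in G2M only cells. In the middle range, which takes the cells in no other range, they stood at 445 CPM against 370.4. The low and middle ranges held 626 and 356 of the 1205 cells of Flt3- Ly6d- HSA-. The granulocyte class held 23.6% of the 43 members' UMIs in Flt3- Ly6d- HSA- and 13.5% in Flt3+ Ly6d- HSA-. In the S range it took in 22 of 72 cells of the former and 7 of 187 of the latter, and the 0.698 includes them. Without the class the ratio was 0.513 over all cells, 0.689 in G2M only cells and, in the S and G2M range, 1.25 (1.16 to 1.34) in place of 0.889. That range held 29 cells of Flt3- Ly6d- HSA-, 17 of them of the class, and 10 of the 29 held 68.1% of these UMIs. The interval does not cover differences between so few cells.

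The second comparison set Flt3+ HSA+ beside Flt3+ Ly6d- HSA-, that is the Flt3+ cells by HSA. The 43 members were at 1970 CPM against 1192, a ratio of 1.65 (1.63 to 1.68), and the 6 S range members at 581 against 318, a ratio of 1.83 (1.78 to 1.88). Of 36 members measured, 20 were at least 1.5-fold higher, from Hist1h3i at 1.52 to Hist1h2af at 2.24, and only Hist1h2bc was lower, at 0.369 (0.342 to 0.398). Over 9066 genes, 2.05% were higher and 0.75% lower, and the median log2 ratio was -0.00 against 0.63 over the members. The S and G2M range held 27.7% of the cells against 13.8%, and the G2M only range 29.1% against 18.4%. Within these ranges the 43 members differed by less, at 1.24 (1.22 to 1.27) and 1.21 (1.18 to 1.24), and in the low range the ratio was 0.856 (0.761 to 0.961). Among S range cells the 6 S range members turned to 0.891 (0.765 to 1.04). For Hist1h2bc the ratio was 0.593 in the low range, 0.866 (0.616 to 1.23) in the S and G2M range and 0.280 (0.249 to 0.315) in G2M only cells.

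The third comparison set the Flt3- sorts beside each other, by Ly6d. The 43 members were at 761 CPM in Flt3- Ly6d+ against 616 in Flt3- Ly6d- HSA-, a ratio of 1.24 (1.20 to 1.27). The 6 S range members were at 172 against 113, a ratio of 1.52 (1.42 to 1.63), and at 1.99 (1.84 to 2.15) without the granulocyte class. Of 21 members measured, Hist1h1b (1.53), Hist1h2bj (1.58), Hist1h2an (1.63) and Hist1h3c (1.89) were at least 1.5-fold higher and Hist1h2bc was lower, at 0.553 (0.505 to 0.604). Over 9178 genes, 1.75% were higher and 2.47% lower, and the median log2 ratio was 0.02 against 0.30 over the members. In the low range the 43 members ran the other way, at 0.866 (0.815 to 0.921), and in the middle range they stood at 379.9 CPM against 445. In the S range, with 74 cells against 72, their ratio was 1.58 (1.40 to 1.78). The granulocyte class took in 22 of the 72 cells and none of the 74, and this ratio includes it. The 10 cells with most of these UMIs held 43.1% of them in Flt3- Ly6d+ and 31.0% in Flt3- Ly6d- HSA-. In G2M only cells, 52 against 77, the 43 members stood 2.04 times higher (1.90 to 2.18) and 1.54 times without the granulocyte class, which 23 of the 77 cells belonged to. In the S and G2M range the ratio was 1.22 (1.15 to 1.30) with that class and 0.824 (0.759 to 0.895) without it. Of the 29 cells of Flt3- Ly6d- HSA- there, 17 were of the class, so the last value rests on few cells.

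The fourth comparison set Flt3- Ly6d+ beside Flt3+ HSA+, which differ in both Flt3 and the other gates. The 43 members were at 761 CPM in the former against 1970 in the latter, a ratio of 0.386 (0.377 to 0.395), and the 6 S range members at 172 against 581, a ratio of 0.296 (0.282 to 0.311). Of 36 members measured, 29 were at least 1.5-fold lower in Flt3- Ly6d+, from Hist1h2af at 0.155 to Hist1h4h at 0.646, and only Hist1h2bc was higher, at 1.80 (1.63 to 1.99). Over 9236 genes, 8.3% were higher and 7.31% lower, and the median log2 ratio was 0.04 against -1.27 over the members. The S and G2M range held 4.96% of the cells against 27.7%, and the low range 47.3% against 8.21%. Within ranges the 43 members ran both ways. They were lower in Flt3- Ly6d+ in the S and G2M range, at 0.876 (0.840 to 0.913), and in G2M only cells, at 0.909 (0.867 to 0.952). They were higher in the low range, at 1.21 (1.08 to 1.36), and in the S range, at 1.13 (1.03 to 1.24), and stood at 379.9 CPM against 361 in the middle range. Among S range cells that of the 6 S range members turned to 1.15 (0.940 to 1.40). Hist1h2bc was 5.47 times higher (4.63 to 6.44) in the 52 G2M only cells of Flt3- Ly6d+ than in the 344 of Flt3+ HSA+. That range mixes bins of the finer grid between which Hist1h2bc differs. In the only such bin with at least 20 cells in both sorts, it was at 32.2 (18.0 to 53.1) in 21 cells against 27.6 (23.5 to 32.2) in 204. That bin has over 6 S phase and 15 or more G2 and M phase UMIs. The part of position within the range in the 5.47 was not tested.

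The control, which also takes in CD25+ and Bcl11b+ cells, was compared with the unweighted mean of the 4 gated sorts. The 43 members were at 1593 CPM against 1135, a ratio of 1.40 (1.39 to 1.42), and the 6 S range members at 507 against 296, a ratio of 1.71 (1.68 to 1.74). Both sets were chosen for high levels in ranges of these same control cells, which can favour the control here and within ranges. All members together, a set not chosen this way, stood at 1781 in the control and at 1431, 2171, 891 and 959 in the gated sorts. Of 33 members measured, 9 were at least 1.5-fold higher, from Hist2h2bb (identifier ENSMUSG00000105827) at 1.51 to Hist1h2bk at 1.89, with Hist1h1b at 1.76 and Hist1h1a at 1.67. Hist1h2bc alone was lower, at 0.586 (0.559 to 0.614). With every cell thinned to 3000 UMIs, 2 members were higher and 1 lower. Over 9206 genes, 3.57% were higher and 3.49% lower, and the median log2 ratio was 0.03 against 0.44 over the members. In the S and G2M range the 43 members stood at 3437 against 2747, a ratio of 1.25 (1.23 to 1.27), and at 1.12 (1.09 to 1.15) without the granulocyte class. That class held 17 of the 29 cells of Flt3- Ly6d- HSA- in this range. Among S range cells the 6 S range members were at 1.04 (0.949 to 1.15).

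The 5 comparisons share populations and are not independent. In a sum over cells, a lower level can come from fewer S and G2M range cells or a smaller share of UMIs in each. Values within ranges separate these only in part, since a range still mixes cells with different counts of both lists. Depth per cell moved with the ranges: the median was 21570 to 29483 UMIs in S and G2M range cells and 8621 to 11304 in low range cells of the 5 populations. Its part in the differences between ranges was not tested beyond the shares at equal depth.

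**Figure D5:**
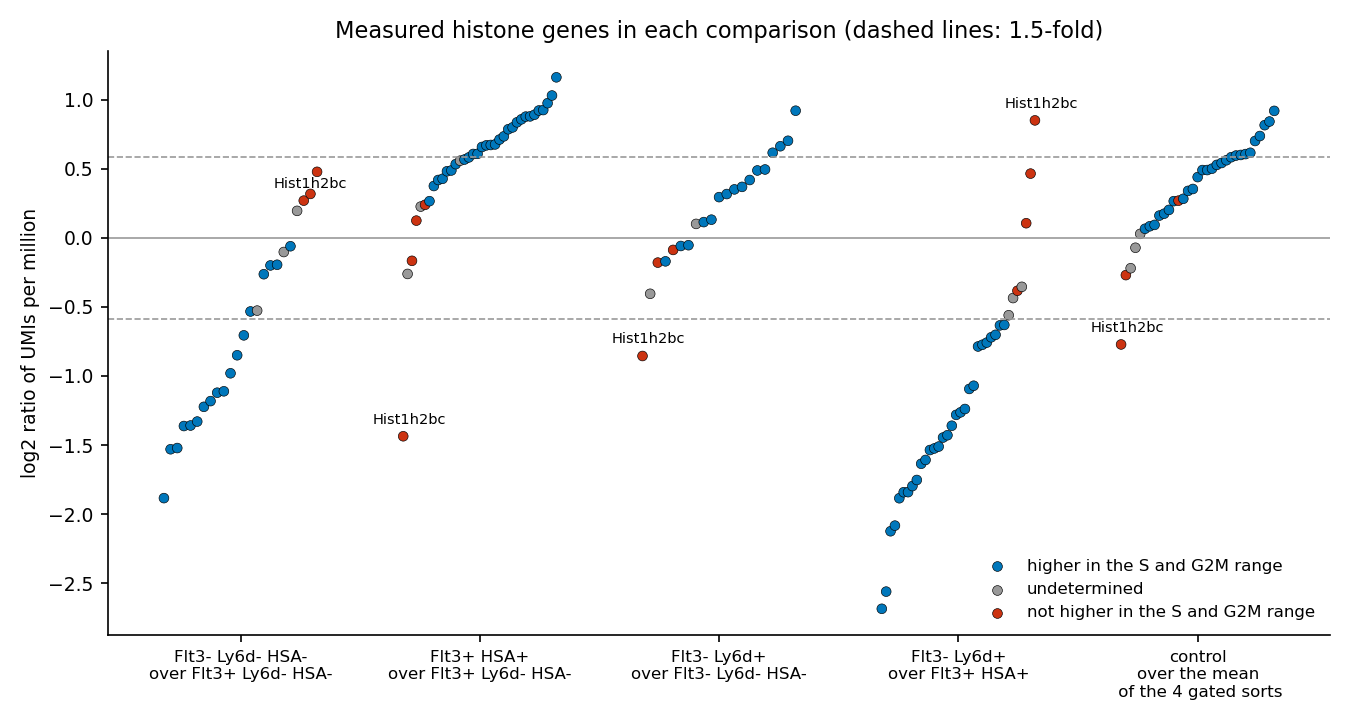
log2 ratio of CPM for the members measured in each of the 5 comparisons, each point a gene, sorted by ratio and coloured by its group in control cells, with dashed lines at 1.5-fold. Hist1h2bc has the lowest ratio in the second, the third and the fifth comparison and the highest in the fourth, at 1.80. In the first it is at 1.21, below Hist3h2a and Hist3h2ba.

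Genes that act on histone RNA and protein were read from fixed lists in the same control ranges. Of 16 genes of histone mRNA processing, 15 were measured, 4 were at least 2-fold higher in the S and G2M range than in the low range and none 2-fold lower, with a median log2 ratio of 0.38. They were Slbp, which binds the stem-loop, at 62.9 against 314 CPM (4.99 times), Casp8ap2 (2.97), the 3′ exonuclease gene Eri1 (2.77), and Npat, an activator of histone transcription (2.09). Slbp was already 3.56 times higher in the S range, where the 43 members stood at 386 against 376 in the low range. Of 18 chaperone and assembly genes 10 were at least 2-fold higher and none lower, with a median of 1.09. The highest were Asf1b at 48.5 times, Chaf1a, a subunit of the CAF-1 assembly complex, at 12.5 times, and Nasp at 7.26 times. Of 11 histone genes named outside the Hist clusters, 6 were at least 2-fold higher and none lower, with a median of 1.12: H2afx (6.36), H2afz (5.04), H1fx (3.87), Cenpa (2.70), H2afy2 (2.66) and H2afv (2.17). H3f3a and H3f3b, which encode the replacement histone H3.3, were at 0.957 and 1.02.

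Between sorts these 3 lists moved less than the members by median log2 ratio. Of the lists that set the ranges, the S phase list also moved less in every comparison but the last, and the G2 and M phase list moved more in each. Median log2 ratios in the 5 comparisons were -0.71, 0.20, 0.14, -0.83 and 0.46 over the S phase list. Over the G2 and M phase list they were -1.70, 0.77, 0.47, -2.01 and 0.51, and over the members -0.78, 0.63, 0.30, -1.27 and 0.44. In Flt3- Ly6d- HSA- over Flt3+ Ly6d- HSA- none of 15 measured processing genes was 1.5-fold apart, with a median log2 ratio of -0.10. Of 18 chaperone genes 3 were lower (median -0.38), and of the 11 other histone genes 3 were lower (median -0.33), with H2afx at 0.437 and Asf1b at 0.449. Without the granulocyte class the counts lower were 2, 8 and 3. In Flt3- Ly6d+ over Flt3+ HSA+ the counts lower were 0, 4 and 4, with medians of -0.07, -0.34 and -0.16. In Flt3+ HSA+ over Flt3+ Ly6d- HSA- H2afx was at 1.80 and Cenpa at 1.51, and no processing or chaperone gene was 1.5-fold apart. Without the class 1 chaperone and 3 other histone genes were higher. No gene of the 3 lists was 1.5-fold apart in Flt3- Ly6d+ over Flt3- Ly6d- HSA- at 5 CPM, but without the granulocyte class 1 processing, 2 chaperone and 1 other histone gene were higher. In the control over the gated sorts the counts higher were 0, 2 and 1, with Asf1b at 1.72, Chaf1a at 1.51 and H1fx at 1.65.

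Sequence features that the rule did not use were set beside the grouping, without a test. Of the 18 members with enough UMIs whose annotated transcript ends under 100 bases after the stem-loop, 16 followed the S and G2M range and none failed to, with a median ratio of 12.6 (range 1.93 to 87.0). Of 20 with at least 100 bases after it, 13 followed, 3 did not and 4 were undetermined, with a median of 3.45 (range 0.459 to 9.18). Of 14 with no stem-loop in the annotated transcript 12 followed and 1, Hist1h2bc, did not, with a median of 12.5 (range 0.220 to 56.1). The highest ratio among members with the long annotated end was thus below the median of those with the short one. The classes rest on the annotation, and the transcript ends in these cells were not measured. An annotated transcript can also stop before the stem-loop, as may be so for Hist1h2bl at 381 bases. The 14 are therefore not a group known to lack it.

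RefSeq promoters (250 bases before to 50 after the start, GRCm38.p6) matched 60 members. CCAAT, on either strand, stood in 51 of the 60 (85.0%) against 37.4% of 32851 promoters. It was in all 48 matched H1, H2A, H2B and H3 promoters and in 3 of 12 for H4. TATAAA stood in 35 (58.3%, against 13.6%) and the octamer ATTTGCAT in 13 (21.7%, against 1.74%), 7 of 17 for H2A and 6 of 15 for H2B. CCAAT was in 36 of the 39 matched promoters of members that followed the S and G2M range and in 2 of the 3 for those that did not, and TATAAA in 23 and 1. Hist1h2bc and Hist1h2ap were not among the matched promoters. The promoter of Hist1h1b, the leading member, is at chr13:21780576-21780875 (minus strand), and that of Hist1h2ac at chr13:23683910-23684209 (minus strand). The latter is shown because it spans the start of Hist1h2bc, which is transcribed the other way from chr13:23684199. Capitals mark the motifs on either strand.
Hist1h1b: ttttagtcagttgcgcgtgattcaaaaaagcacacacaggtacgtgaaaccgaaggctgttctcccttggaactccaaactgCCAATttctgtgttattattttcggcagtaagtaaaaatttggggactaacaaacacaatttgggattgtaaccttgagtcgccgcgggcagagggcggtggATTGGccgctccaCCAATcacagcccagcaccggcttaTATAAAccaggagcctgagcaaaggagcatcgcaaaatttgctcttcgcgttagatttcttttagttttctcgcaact
Hist1h2ac: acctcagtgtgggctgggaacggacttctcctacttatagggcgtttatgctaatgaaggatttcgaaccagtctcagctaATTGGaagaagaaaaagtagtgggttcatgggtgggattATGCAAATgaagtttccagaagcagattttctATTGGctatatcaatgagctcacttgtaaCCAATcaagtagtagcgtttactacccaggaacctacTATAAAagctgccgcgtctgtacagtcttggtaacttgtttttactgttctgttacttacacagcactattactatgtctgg
Hist1h2ac and Hist1h2bc start 251 bases apart, and in control cells their S and G2M ratios were 3.78 and 0.220. In all, 12 pairs of members are transcribed away from each other with starts within 500 bases, and 7 pairs had both members grouped. In 4 pairs both followed the S and G2M range. In the other 3 the H2A gene followed and the H2B gene did not reach the rule: Hist2h2ac at 12.4 and Hist2h2be at 1.97, Hist1h2ae at 9.18 and Hist1h2bg at 1.95, and Hist1h2ac and Hist1h2bc as above.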

How the data were processed

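Gene expression and hashtag antibodies were read in 1 pooled 10x 3′ library of mouse thymus cells. The authors deposited counts of UMIs per gene and cell, made with Cell Ranger 3.0 and the mm10 genome, per the submitters' processing notes, and a table that assigns cells to the 5 populations. The deposited hashtag counts do not say whether they are reads or UMIs, and how cells were assigned is not stated. The assignment was taken as deposited. Other cell filters were tried only as alternatives, and doublets were not called.

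UMIs were summed per population and divided by the population's total (CPM, per 1000000 UMIs). With 1 library no dispersion can be estimated, so no test was run. Intervals are exact Poisson for levels, Clopper-Pearson for shares, a binomial split for ratios, and a log-normal approximation for the control against the mean of the 4 gated sorts. Genes entered a comparison when 5 CPM were reached on 1 side or both, and were called apart at 1.5-fold between sorts or 2-fold between ranges. Cells under 3000 UMIs (6 to 52 per population) were in no range. Members and lists were chosen with earlier results of these data known, and the S and G2M range, the G2M only range and the finer grid were added after the values were seen. Any member at 5 CPM could be named. Full values are given for the 12 members with most UMIs, for Hist1h2bc and for each member that did not follow the S range, and genes of other lists were named by size of fold. Stem-loops come from GENCODE M21 transcripts (67 of 69 members) and promoters from RefSeq, build GRCm38.p6 (60 matched). Alternatives covered normalization (edgeR 4.0.16 TMM and DESeq2 1.42.0 size factors in R 4.3.3), weights and depth of cells, cell filters, the granulocyte class and the ranges. Python 3.11.15, numpy 2.4.6, scipy 1.17.1, pandas 2.3.3 and matplotlib 3.10.9 were used. The 1.5-fold call between sorts and the ratio interval were tested on simulated Poisson sums without spread between cells. The other steps were not tested this way.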

Additional observations from a re-analysis of the deposited data

Results flagged for a closer look

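The 345 barcodes that the deposited table assigned to no population (4.16% of all) entered no comparison, and they drew attention because the members' RNA was plainly present there. The members stood at 1651.5 CPM (1627 to 1676), within the range of the 5 populations. Hist1h1b was at 356 and Hist1h2bc at 49.2, and 72 of these barcodes fell in the S and G2M range. Their median depth was 29414 UMIs.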

How the results depend on the processing

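No paired analysis was possible because each population is 1 sort and no population has a replicate. Values run in the order of the 5 comparisons in the report, with the control last. The summed ratio of the 6 S range members, most of whose UMIs are of Hist1h1b, was 0.332, 2.19, 1.63, 0.248 and 1.54 with equal weight for each cell. Without the 5% of cells with most UMIs it was 0.287, 2.06, 1.37, 0.190 and 1.79. With cells thinned to 3000 UMIs the last 4 were 2.28, 1.64, 0.252 and 1.51. Without the granulocyte class the first 3 were 0.292, 1.98 and 1.99, and the fifth was 1.78. Among S range cells only, the ratios were 0.511, 0.891, 2.005, 1.15 and 1.04, so that the second and the fourth turned direction. TMM factors moved the fourth to 0.279. DESeq2 size factors moved the fifth to 1.67 and totals without mitochondrial and ribosomal protein genes to 1.68. The cause of these moves was not tested. The summed ratio of the 43 members was 0.613, 1.86, 1.13, 0.374 and 1.25 with thinned cells, and 0.581, 1.84, 1.15, 0.366 and 1.24 with equal weights. Without the granulocyte class it was 1.73 in the second, 1.29 in the third and 1.42 in the fifth, and no direction turned under these 3 settings. The count of 6 members that followed the S range was 1 with medians in place of tertiles, 22 with quartiles, 3 with minichromosome maintenance genes only and 3 at 3-fold. It was 9 in the gated sorts pooled, with 4 of the 6 among them, 4 without the granulocyte class, 5 with cells thinned to 5000 UMIs and 7 at 1.5-fold. With the S and G2M range it was 43, and 44 without the granulocyte class. Made in the gated sorts pooled it was 43, and 42 without that class, and with cells thinned to 5000 UMIs it was 45. Members 1.5-fold apart numbered 13, 21, 5, 30 and 10 in the 5 comparisons. The counts were 13, 25, 7, 28 and 3 with thinned cells, 13, 21, 7, 31 and 12 without the granulocyte class, 36, 36, 23, 51 and 16 with no minimum level, and 9, 10, 2, 14 and 4 at 20 CPM. For thinned cells, no minimum level and 20 CPM no share over all genes is given, so these counts cannot be set against a background. With no minimum level, members with few UMIs can pass 1.5-fold by counting error. Depth limits the members under 5 CPM and the S and G2M ranges of the Flt3- sorts, and intervals cover counting error only.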
